A study of Mus musculus with 39 samples.

Results

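Collagens and laminins are the large structural proteins of the extracellular matrix, and their transcripts were followed here in 4 brain regions of control and PianpKO mice. The members were all probe sets whose gene symbol is Col, a number, a and a number, or Lama, Lamb or Lamc with a number. This gave 54 of the 25429 probe sets of the array, of which 44 were collagens and 10 were laminins. By class there were 11 fibrillar collagens, 6 type IV collagens, 12 collagens of beaded filaments, networks or anchoring fibrils, 9 fibril-associated (FACIT) collagens, 4 transmembrane collagens and 2 multiplexins, with 5 laminin alpha, 3 beta and 2 gamma chains. Each member had 1 probe set.

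Collagens are bundles of alpha chains wound into a helix, and laminins are cross-shaped assemblies of 1 alpha, 1 beta and 1 gamma chain. In the brain, laminins and type IV collagens form the basement membranes around blood vessels and under the pia, while fibrillar collagens are made mainly by fibroblasts of the meninges and of the larger vessels. Some collagens with a membrane anchor or short helices are made by neurons themselves.

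RNA came from punches of the amygdala, cortex, hippocampus and hypothalamus of experimentally naive male mice. Control mice carried a floxed *Pianp* gene (FL), obtained by crossing Pianptm1a(KOMP)Wtsi mice with a deleter line that expresses FLP recombinase from the actin promoter. PianpKO mice came from a further cross of this floxed line with CMV-cre mice, so *Pianp* was lost constitutively and not in 1 cell type. Each region was measured in 5 control and 5 PianpKO mice on 1 array per mouse and region, except that the control amygdala had 4 samples. The ages of single mice, scan batches and detection calls were not used here, so a batch or an age that differs between the genotypes was not tested.

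All values are log2 signals after RMA, so that a difference of 1 is a doubling. Arrays of 1 group correlated with each other at 0.989 to 0.996 over all probe sets. *Pianp* itself lay between 7.08 and 8.16 in the control samples and between 5.10 and 6.17 in the PianpKO samples, with no overlap. Of 54 members, 23 had a control mean above the median probe set and 13 a control mean of at least 5, so most members gave dim signals. Lists of regional marker genes had their highest mean in the region of their name for the hypothalamus (6.49 in control mice), hippocampus (7.24) and cortex (8.19). The amygdala list did not, with 7.02 in the control amygdala against 7.15 in the control hippocampus. That list includes *Prkcd*, which is also on the list of thalamus markers used below. *Prkcd* read 10.37 in the control hippocampus against 6.38 in the control amygdala, and a mean without it was not taken.

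Regional differences were tested first within the control mice, in 1 limma fit in which the mouse entered as a random effect. Of the 54 members, 18 differed between the regions at an adjusted p under 0.05, which is 33.3% against 27.6% of all probe sets. The count was 10 without control mouse 1, 11 without control mouse 2, and up to 17 without another mouse. Members with a brighter signal differed more often, as all probe sets did: 10 of the 13 members with a mean of at least 5 against 8 of the other 41, compared with 48% and 10.3% of all probe sets. The cortex was the highest region for 6 of the 18 members, the amygdala for 5, the hippocampus for 4 and the hypothalamus for 3. The collagens *Col19a1*, *Col6a1*, *Col6a2*, *Col5a3*, *Col9a2* and *Col17a1* were highest in the cortex, and *Col1a2*, *Col12a1*, *Col23a1*, *Lama1* and *Lama4* in the amygdala. *Lamb1*, *Lama2*, *Col8a1* and *Col9a3* were highest in the hippocampus, and *Col25a1*, *Lamb2* and *Col6a5* in the hypothalamus. The highest regions of all probe sets are not counted here, so these counts describe the members only. In bulk tissue, fewer cells of a type and less RNA per cell cannot be told apart.

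**Figure D1:**
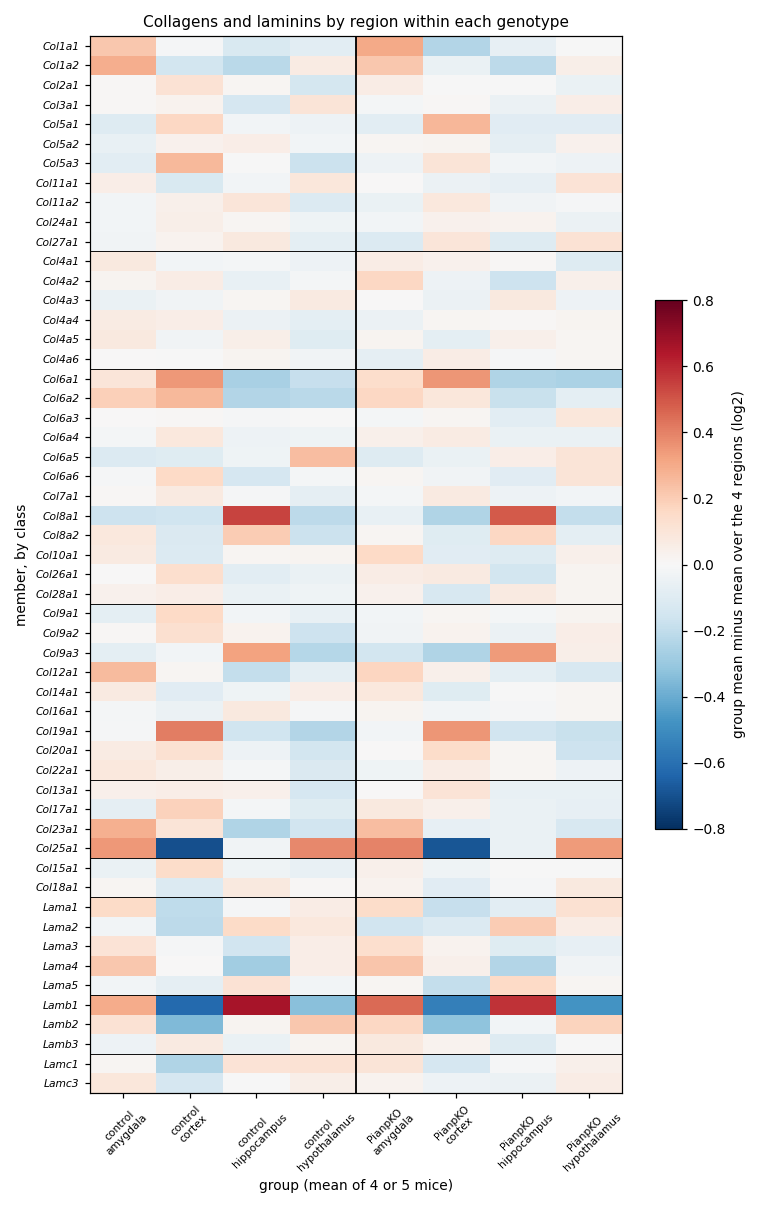
Group means of all 54 members minus the mean over the 4 regions of the same genotype (log2, colour scale), with members in rows by class and the 8 groups of 4 or 5 mice in columns. The strongest colours lie in the rows of *Lamb1*, *Col25a1*, *Col8a1* and *Col19a1*, and the type IV collagens are pale in both genotypes.

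The largest regional difference among the laminins was that of *Lamb1*, the beta 1 chain of basement membrane laminins. In the control hippocampus its signal was 6.99, 6.73, 6.71, 6.76 and 6.74 in mice 1 to 5. The control amygdala gave 6.54, 6.43, 6.38 and 6.35 in mice 1, 2, 3 and 5. The signals of the control hypothalamus ran from 5.67 to 6.08 with a median of 5.73. Those of the control cortex ran from 5.20 to 6.03 with a median of 5.42. Every control hippocampus sample lay above every other control sample, whereas cortex and hypothalamus overlapped. The hippocampus exceeded the mean of the other regions by 0.87 ± 0.09 (SE), or 1.83-fold, with an adjusted p of 3.51e-06 in limma. The cortex was lower by -0.83 ± 0.09 (adjusted p = 3.11e-06), and the amygdala higher by 0.41 ± 0.10 (adjusted p = 0.0209). The amygdala value lost its call without control mouse 1 (0.36, adjusted p = 0.0997), mouse 2 (0.38, adjusted p = 0.165) or mouse 5 (0.41, adjusted p = 0.116).

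The same order of regions was measured for *Lamb1* in the PianpKO mice. Their hippocampus signals were 6.78, 6.71, 6.49, 7.20 and 6.94, and their amygdala signals were 6.98, 6.70, 6.26, 6.79 and 6.75. Hippocampus and amygdala overlapped here, and both lay above the hypothalamus (5.56 to 5.98) and the cortex (5.43 to 6.21). The hippocampus exceeded the other regions by 0.77 ± 0.12 (adjusted p = 0.000104) and the amygdala by 0.60 ± 0.12 (adjusted p = 0.00183), while the hypothalamus was lower by -0.64 ± 0.12 (adjusted p = 0.000542). Hippocampal punches also carried signal of other tissue lists. The mean of 8 thalamus markers was 8.66 in the control hippocampus, 7.19 in the hypothalamus, 6.76 in the amygdala and 6.05 in the cortex. All 8 markers differed between the control regions. The control *Lamb1* mean was lower in the hypothalamus (5.795) than in the amygdala (6.425), unlike the marker mean. The part of the thalamus markers in the *Lamb1* difference was not tested.

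*Col25a1* encodes a transmembrane collagen of neurons whose shed ectodomain was found in amyloid plaques. Its control signals in mice 1 to 5 were 5.75, 6.19, 6.24, 6.17 and 5.84 in the cortex. They were 7.14, 6.87, 6.99, 7.33 and 7.28 in the hypothalamus, and 7.13, 7.08, 7.08 and 7.05 in the 4 amygdala samples. The control hippocampus was intermediate at 6.52 to 6.85, and no control cortex sample reached any other control sample. The cortex was below the other regions by -0.94 ± 0.08, or 1.92-fold, with an adjusted p of 1.42e-07. The hypothalamus was above them by 0.51 ± 0.08 (adjusted p = 0.000188) and the amygdala by 0.47 ± 0.09 (adjusted p = 0.00253). The mean of 11 hypothalamic markers was 6.49 in the control hypothalamus, 5.91 in the amygdala, 4.85 in the hippocampus and 4.24 in the cortex. The part of these markers in the *Col25a1* differences was not tested.

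In PianpKO mice the cortex was again the lowest region for *Col25a1*, at -0.91 ± 0.12 against the other regions (adjusted p = 1.41e-05). Its PianpKO cortex samples read 6.75, 6.31, 5.77, 6.21 and 5.77, so that mouse 1 overlapped the PianpKO hippocampus (6.54 to 7.18). The PianpKO amygdala was above the other regions by 0.53 ± 0.12 (adjusted p = 0.00798) and the hypothalamus by 0.45 ± 0.12 (adjusted p = 0.016). The hypothalamus call was lost without PianpKO mouse 2, 3, 4 or 5, at adjusted p of 0.0587, 0.0694, 0.0595 and 0.0509.

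*Col19a1*, a FACIT collagen that in the brain is made by neurons, ran the other way in the cortex. The control cortex signals were 4.66, 5.03, 4.80, 4.71 and 4.67 in mice 1 to 5. The other control samples ran from 4.13 to 4.47 in the amygdala, 4.11 to 4.49 in the hippocampus and 3.91 to 4.33 in the hypothalamus. All 5 control cortex samples were above all other control samples, although the signals are dim. The cortex difference was 0.54 ± 0.08 (adjusted p = 4.23e-05), or 1.45-fold. In PianpKO mice it was 0.47 ± 0.08 (adjusted p = 8.44e-05), from cortex samples of 4.66, 4.48, 4.79, 4.79 and 4.65. The hypothalamus was lower than the other regions, by -0.31 ± 0.08 in control mice (adjusted p = 0.00761, and 0.0655 without control mouse 1). In PianpKO mice it was lower by -0.24 ± 0.08 (adjusted p = 0.0353). That call was lost without PianpKO mouse 1, 2, 3 or 5, at adjusted p of 0.0718, 0.0638, 0.0947 and 0.125, and with a trended prior (0.0509).

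**Figure D2:**
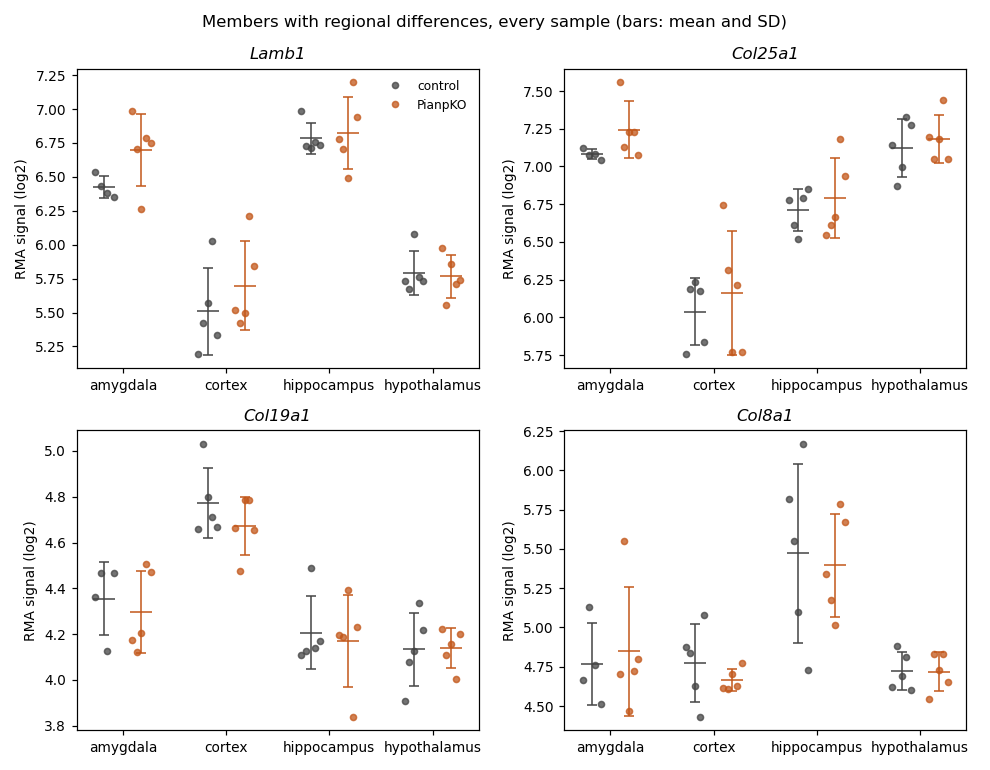
RMA signal (log2) of *Lamb1*, *Col25a1*, *Col19a1* and *Col8a1* in every sample by region, control in grey and PianpKO in orange, with bars for the mean and SD of 4 or 5 mice. *Lamb1* is highest in the hippocampus and amygdala, *Col25a1* lowest and *Col19a1* highest in the cortex, and *Col8a1* is higher and more scattered in the hippocampus.

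*Col8a1*, a chain of the short network-forming collagen of corneal and vascular basement membranes, was highest in the hippocampus with a wide scatter between mice. Its control hippocampus signals were 5.82, 5.55, 5.10, 6.17 and 4.73 in mice 1 to 5, and the PianpKO hippocampus signals were 5.34, 5.17, 5.01, 5.79 and 5.67. The other control regions ran from 4.43 to 5.13, so that mice 3 and 5 lay within them and mice 1, 2 and 4 above. The hippocampus exceeded the other regions by 0.72 ± 0.16 in control mice (adjusted p = 0.00457) and by 0.65 ± 0.13 in PianpKO mice (adjusted p = 0.00107). Without control mouse 1 the control difference was 0.62 with an adjusted p of 0.0628.

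The mean signal of 9 choroid plexus markers mostly moved with *Col8a1* across the hippocampus samples of each genotype. In the control hippocampus this mean was 7.71, 7.10, 6.70, 7.53 and 6.56 in mice 1 to 5. In the PianpKO hippocampus it was 7.08, 6.82, 6.22, 7.55 and 7.63. The 3 control mice with the highest marker mean (1, 4 and 2) also had the highest *Col8a1* signals, and mouse 5 was lowest in both. Outside the hippocampus, PianpKO amygdala sample 2 stood apart in both measures, with a marker mean of 6.65 against at most 5.67 in the other PianpKO amygdala samples and a *Col8a1* signal of 5.55 against at most 4.80. The measures did not move together in every group. PianpKO hypothalamus sample 5 had the highest marker mean of its group (5.84). Its *Col8a1* signal of 4.66 lay within the 4.55 to 4.83 of that group. All 9 markers differed between the control regions, and *Ttr*, the transthyretin gene of the choroid plexus, was 13.1 in the control hippocampus against 8.07 in the cortex. The part of choroid plexus tissue in the *Col8a1* difference was not tested.

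**Figure D3:**
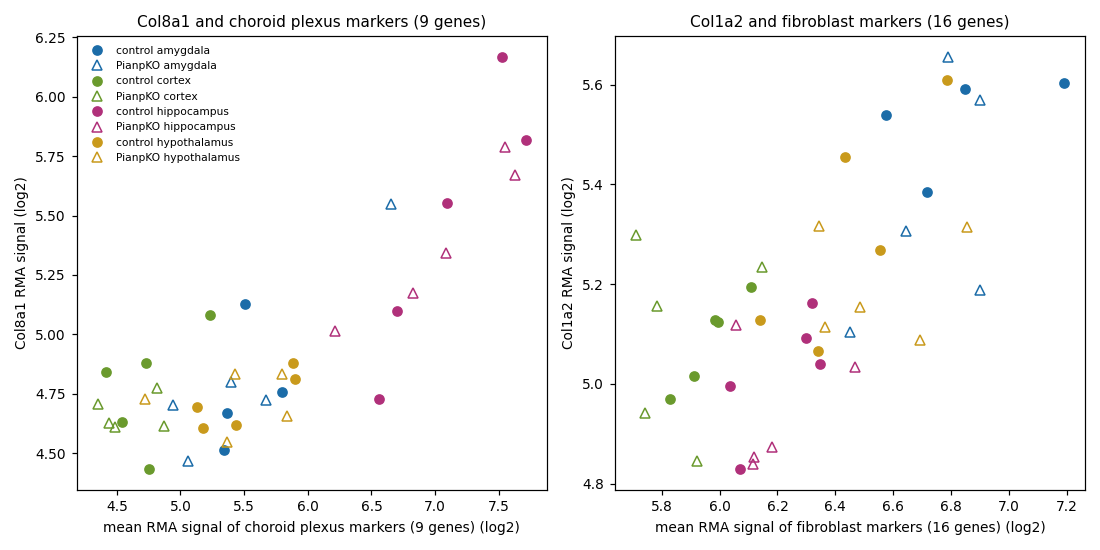
Left, *Col8a1* signal against the mean signal of 9 choroid plexus markers; right, *Col1a2* signal against the mean of 16 fibroblast markers (all log2), 1 point per sample for 39 samples, filled circles for control and open triangles for PianpKO, coloured by region. All samples with *Col8a1* at or above 5.34 have a choroid plexus mean of at least 6.65. Control hippocampus 3 and PianpKO hippocampus 2 also have such a mean, at *Col8a1* signals of 5.10 and 5.17. The samples with the highest *Col1a2* are mostly amygdala samples with high fibroblast markers.

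*Col9a3*, a chain of the FACIT collagen IX known from cartilage, was also higher in the hippocampus. The control hippocampus read 5.33, 5.47, 5.25, 5.40 and 5.09, against 4.60 to 5.28 in the other control regions. Mouse 5, and by a small margin mouse 3, thus overlapped the other regions. The difference was 0.43 ± 0.08 (adjusted p = 0.00115) in control mice. In PianpKO mice it was 0.45 ± 0.11 (adjusted p = 0.00835), where mouse 2 at 4.71 lay apart from the other 4 (5.32 to 5.53). That call was lost without PianpKO mouse 4 (0.35, adjusted p = 0.11) or mouse 5 (0.39, adjusted p = 0.0881). The mean of 7 oligodendrocyte markers was also highest in the control hippocampus, at 10.03 against 8.84 (amygdala), 9.42 (cortex) and 9.54 (hypothalamus). The control *Col9a3* means of those other regions were 4.91, 4.96 and 4.76, which is another order. The choroid plexus list (7.12) and the thalamus list (8.66) were highest in the control hippocampus too. The part of these lists in the *Col9a3* difference was not tested.

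Among the fibrillar collagens, *Col1a2* was highest in the amygdala. It encodes the alpha 2 chain of collagen I, the main collagen of connective tissue. The 4 control amygdala samples read 5.59, 5.60, 5.38 and 5.54, and the PianpKO samples 5.66, 5.19, 5.10, 5.57 and 5.31. The control hypothalamus overlapped the amygdala with 5.07 to 5.61, and the control cortex (4.97 to 5.19) and hippocampus (4.83 to 5.16) did not. The amygdala exceeded the other regions by 0.40 ± 0.08 in control mice (adjusted p = 0.0028). In PianpKO mice the difference was 0.29 ± 0.08 (adjusted p = 0.0368). The latter call was lost without PianpKO mouse 1, 2, 4 or 5, at adjusted p of 0.153, 0.0585, 0.293 and 0.113, and with the mouse as a fixed block (0.0514).

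The partner chain *Col1a1* did not pass in control mice (adjusted p = 0.192) and did in PianpKO mice (adjusted p = 0.0109), with amygdala means of 6.01 and 6.10 and cortex means of 5.79 and 5.56. *Col3a1*, another fibroblast collagen, passed in neither genotype (adjusted p = 0.319 and 0.817). Fibroblast markers were highest in the amygdala as well. The mean of the 16 genes was 6.83 in the control amygdala (6.57 to 7.19), 6.45 in the hypothalamus, 6.22 in the hippocampus and 5.97 in the cortex, and 12 of the 16 differed between regions. In the same order of regions the control *Col1a2* means were 5.53, 5.305, 5.02 and 5.09, with the hippocampus lowest instead of the cortex. The part of the fibroblast markers in the collagen I values was not tested.

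Type VI collagen forms beaded microfibrils, and its chains *Col6a1* and *Col6a2* were both highest in the control cortex. The *Col6a1* signals there were 6.84, 6.86, 7.15, 7.05 and 7.16, against 5.73 to 6.98 in the other control regions. The *Col6a2* signals were 5.61, 5.97, 5.84, 5.93 and 5.93, against 5.13 to 6.12. Both ranges overlapped those of other regions, in particular the amygdala. The cortex difference of *Col6a1* was 0.46 ± 0.14 in control mice (adjusted p = 0.0279). It was lost without control mouse 2 (adjusted p = 0.0589) or mouse 5 (adjusted p = 0.136). In PianpKO mice it was 0.47 ± 0.13 (adjusted p = 0.0125), and it was lost without PianpKO mouse 1 (adjusted p = 0.0729) or mouse 3 (adjusted p = 0.0916).

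For *Col6a2* the cortex difference was 0.35 ± 0.09 in control mice (adjusted p = 0.00948, and 0.0733 without control mouse 2). In PianpKO mice it was 0.12 ± 0.10 with an adjusted p of 0.496, and the PianpKO cortex samples read 5.96, 5.59, 5.53, 5.61 and 5.45. The interaction of genotype and region for *Col6a2* gave an unadjusted p of 0.314, so the genotypes were not shown to differ in this. *Col6a3*, the long chain that completes the microfibril, did not pass in either genotype (adjusted p = 0.998 and 0.574). *Col6a5* was higher in the control hypothalamus by 0.33 ± 0.08 (adjusted p = 0.00448), from dim signals of 4.27, 3.65, 3.91, 3.80 and 4.10 against 3.44 to 3.84 elsewhere. Control mice 2 and 4 lay within that range. In PianpKO mice the difference was 0.14 (adjusted p = 0.213).

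*Lama4*, the laminin alpha 4 chain of vascular basement membranes, was lowest in the hippocampus. Its control hippocampus signals were 4.43, 4.63, 4.50, 4.39 and 4.40, against 4.46 to 5.27 in the other control regions. Mice 2 and 3 overlapped the other regions. The difference was -0.37 ± 0.10 in control mice (adjusted p = 0.0194), and it lost its call without control mouse 1 (adjusted p = 0.0746) or mouse 5 (adjusted p = 0.0632). In PianpKO mice it was -0.32 ± 0.08 (adjusted p = 0.00839). That call was lost without PianpKO mouse 2 (adjusted p = 0.0598) or mouse 4 (adjusted p = 0.0888).

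The other alpha chains called in both genotypes were *Lama1*, the chain of pial basement membrane, and *Lama2*, the chain of muscle and of astrocyte endfeet. *Lama1* was highest in the amygdala (4.49 in control and 4.44 in PianpKO mice) and lowest in the cortex (4.14 and 4.11). *Lama2* was highest in the hippocampus (6.40 and 6.45), with the lowest mean in the control cortex (6.03) and in the PianpKO amygdala (6.10). *Lamb2*, the beta 2 chain known from neuromuscular synapses, was lowest in the cortex (6.09 and 6.19) and highest in the hypothalamus (6.66 and 6.69). *Lamc1*, the gamma 1 chain found in most laminins, gave one of the brightest signals of the members and did not differ between the regions at the threshold. Its control means were 7.08 (amygdala), 6.83 (cortex), 7.17 (hippocampus) and 7.18 (hypothalamus), with adjusted p of 0.18 in control and 0.145 in PianpKO mice. In the same order its control samples ran from 6.46 to 7.38, 6.50 to 7.08, 6.87 to 7.26 and 6.98 to 7.27. The PianpKO samples ran from 7.06 to 7.31, 6.78 to 7.24, 6.85 to 7.265 and 7.03 to 7.245, and the ranges of the regions overlapped in both genotypes.

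None of the 6 type IV collagens passed in control mice, against 27.6% of all probe sets, and 1 did in PianpKO mice, against 26.9%. *Col4a3*, *Col4a4*, *Col4a5* and *Col4a6* were dim, with means of 3.54 to 4.15 in the control regions. *Col4a2* was also under 5 in each control region, with means of 4.85 to 4.97. Of all probe sets with a mean under 5, only 10.3% were called in control mice. For these 6 genes the means of the 4 control regions differed by 0.05 to 0.17. *Col4a1*, which with *Col4a2* forms the network of nearly all basement membranes, had control means of 5.38 (amygdala), 5.28 (cortex), 5.29 (hippocampus) and 5.26 (hypothalamus). The 12 endothelial markers were similarly flat, with list means of 6.73, 6.71, 6.78 and 6.75, and 0 of 12 differed between the control regions. The list of pericytes and smooth muscle gave 6.52, 6.32, 6.37 and 6.45 in the same order, and 4 of its 10 markers differed. *Col4a2* differed in PianpKO mice (adjusted p = 0.0391) and not in control mice (adjusted p = 0.789), and its interaction of genotype and region had an unadjusted p of 0.242. The multiplexins *Col15a1* and *Col18a1*, collagens of vessel walls with cleavable ends, passed in neither genotype.

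*Col23a1*, a transmembrane collagen, was lower in the control hippocampus, at 5.25, 5.26, 5.51, 5.34 and 5.29 against 5.23 to 6.01 elsewhere, so that all 5 samples overlapped those of the other regions. The difference was -0.32 ± 0.09 (adjusted p = 0.0208). It was lost without control mouse 1 (adjusted p = 0.0914), mouse 2 (adjusted p = 0.133) or mouse 5 (adjusted p = 0.0816), and PianpKO mice gave -0.07 ± 0.12 (adjusted p = 0.819). Its interaction had an unadjusted p of 0.285.

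Across genotypes, 17 members differed between regions in PianpKO mice, which is 31.5% against 26.9% of all probe sets. The count was 11 without PianpKO mouse 1, 10 without PianpKO mouse 5, and up to 18 without another. Of the 18 control and 17 PianpKO members, 11 were shared, which is 61.1% of the control list and 64.7% of the PianpKO list. For 10 of the 11 the highest region was the same, and for 7 the lowest. The exception in the highest region was *Col25a1*, with the hypothalamus at 7.12 and the amygdala at 7.08 in control mice and 7.18 and 7.24 in PianpKO mice.

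Single regions were set against the mean of the other regions, and members at an adjusted p under 0.05 were counted by direction beside the share of all probe sets. In control mice the amygdala had 5 higher members (9.26% against 2.99%) and 0 lower (against 2.93%). The cortex had 5 higher (9.26% against 9.73%) and 6 lower (11.1% against 9.49%). The hippocampus had 4 higher (7.41% against 6.37%) and 5 lower (9.26% against 5.45%), and the hypothalamus had 2 higher (3.7% against 8.18%) and 6 lower (11.1% against 8.19%). The amygdala thus had the least even split, with no lower member in either genotype.

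PianpKO mice gave 7 higher (13% against 4.33%) and 0 lower members (against 4.14%) for the amygdala. For the cortex there were 4 higher (7.41% against 9.87%) and 7 lower (13% against 9.72%). For the hippocampus there were 6 higher (11.1% against 6.34%) and 2 lower (3.7% against 5.5%), and for the hypothalamus 1 higher (1.85% against 7.18%) and 3 lower (5.56% against 7.37%).

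Few members also had a difference of more than 0.5. In control mice, *Lamb1* and *Col8a1* were higher in the hippocampus (3.7% of members against 2.17% of all probe sets), with 0 lower (against 1.18%). *Lamb1* and *Col25a1* were lower in the cortex (3.7% against 2.76%) and *Col19a1* higher (1.85% against 2.28%). *Col25a1* was higher in the hypothalamus (1.85% against 2.07%) with 0 lower (against 2.04%), and the amygdala had 0 members (against 0.952% higher and 0.975% lower). The *Col25a1* difference in the hypothalamus fell under 0.5 without control mouse 1, 4 or 5, at 0.49, 0.48 and 0.46. Without control mouse 3 the hypothalamus count was 2, and without control mouse 1 the hippocampus count was 1.

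In PianpKO mice, *Lamb1* and *Col25a1* passed as higher in the amygdala (3.7% against 1.06%), and 0 members as lower (against 1.13%). The count was 1 without PianpKO mouse 1 or 3. *Lamb1* and *Col8a1* were higher in the hippocampus (3.7% against 1.96%) with 0 lower (against 1.17%). *Lamb1* and *Col25a1* were lower in the cortex (3.7% against 2.57%) with 0 higher (against 2.39%), and *Lamb1* was lower in the hypothalamus (1.85% against 1.65%) with 0 higher (against 1.64%). The cortex count was 4 without PianpKO mouse 2 or 5, and the hypothalamus count 2 without PianpKO mouse 1.

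Stretches before the start of 4 of these genes are shown for orientation, since *Col6a1* and *Col6a2* were both highest in the control cortex and *Lamb1* and *Col8a1* both in the hippocampus. They are RefSeq sequences of GRCm38.p6, found for 40 of the 54 members, and were kept to bases outside the annotated gene. Capitals mark a GC box, written GGGCGG, or a CCAAT box, written as in its name. A TATA box, written TATAAA, was searched as well. All were searched on both strands, and no matches overlapped. *Lamb1* lies at chr12:31265043-31265145 on the plus strand, where the predicted gene *Gm32899* overlaps, and *Col8a1* at chr16:57754738-57754987 on the minus strand. *Col6a1* lies at chr10:76726045-76726294 and *Col6a2* at chr10:76623631-76623880, both on the minus strand.
Lamb1: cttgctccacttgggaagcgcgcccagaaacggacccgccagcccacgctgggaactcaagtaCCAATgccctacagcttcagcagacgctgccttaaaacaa
Col8a1: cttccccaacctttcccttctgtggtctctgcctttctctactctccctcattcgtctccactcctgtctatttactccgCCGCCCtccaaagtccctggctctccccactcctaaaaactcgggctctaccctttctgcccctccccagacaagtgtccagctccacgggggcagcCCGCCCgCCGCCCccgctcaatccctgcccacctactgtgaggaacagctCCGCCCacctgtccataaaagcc
Col6a1: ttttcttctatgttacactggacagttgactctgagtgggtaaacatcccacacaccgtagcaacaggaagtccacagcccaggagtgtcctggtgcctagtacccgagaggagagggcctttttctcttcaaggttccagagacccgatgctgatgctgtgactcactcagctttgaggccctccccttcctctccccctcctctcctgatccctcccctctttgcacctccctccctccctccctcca
Col6a2: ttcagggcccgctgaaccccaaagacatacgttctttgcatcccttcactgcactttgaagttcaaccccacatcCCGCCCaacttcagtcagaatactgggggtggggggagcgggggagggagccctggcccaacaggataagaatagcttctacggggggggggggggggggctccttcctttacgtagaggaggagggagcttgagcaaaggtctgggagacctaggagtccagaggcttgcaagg

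The 250 bases before *Col8a1* held 4 GC boxes, those before *Col6a2* held 1, and those before *Col6a1* held none of these motifs. Of all 32851 RefSeq windows of 250 bases, 32.7% held a GC box, 33.8% a CCAAT box and 12.4% a TATA box. The 103 bases before *Lamb1*, the first of its window, held 1 CCAAT box, as did the first 103 bases of 13.9% of all windows. In other windows these bases need not adjoin the gene. GC content was 60.8% for *Col8a1*, 58.3% for *Lamb1*, 59.2% for *Col6a2* and 56.0% for *Col6a1*. A match of letters is a description and shows no binding.

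PianpKO and control mice were then compared within each region. No member passed an adjusted p under 0.05 in limma in any region, against 0.00787% of all probe sets in the amygdala, 0.0157% in the cortex and 0.00393% each in the hippocampus and hypothalamus. An unadjusted p under 0.05 was reached by 2 members in the amygdala (3.7% against 8.07% of all probe sets), 7 in the cortex (13% against 11.2%), 4 in the hippocampus (7.41% against 5.08%) and 1 in the hypothalamus (1.85% against 5.55%). The methods' ANOVA with Benjamini-Hochberg adjustment, array weights and a trended prior also gave 0. The differences of single members ran from -0.34 to 0.30, and their median was 0.01 for amygdala, -0.01 for cortex, -0.02 for hippocampus and 0.02 for hypothalamus samples. Over the members with a mean of at least 5 in the region, which were 14, 14, 14 and 12, the medians were 0.10, 0.10, 0.03 and 0.04, so the sign of the cortex and hippocampus medians depended on this filter. The 95% intervals lay wholly within 0.5 of zero for 51, 46, 51 and 53 of the 54 members, so a difference of more than 0.5 was outside the interval for most of them.

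**Figure D4:**
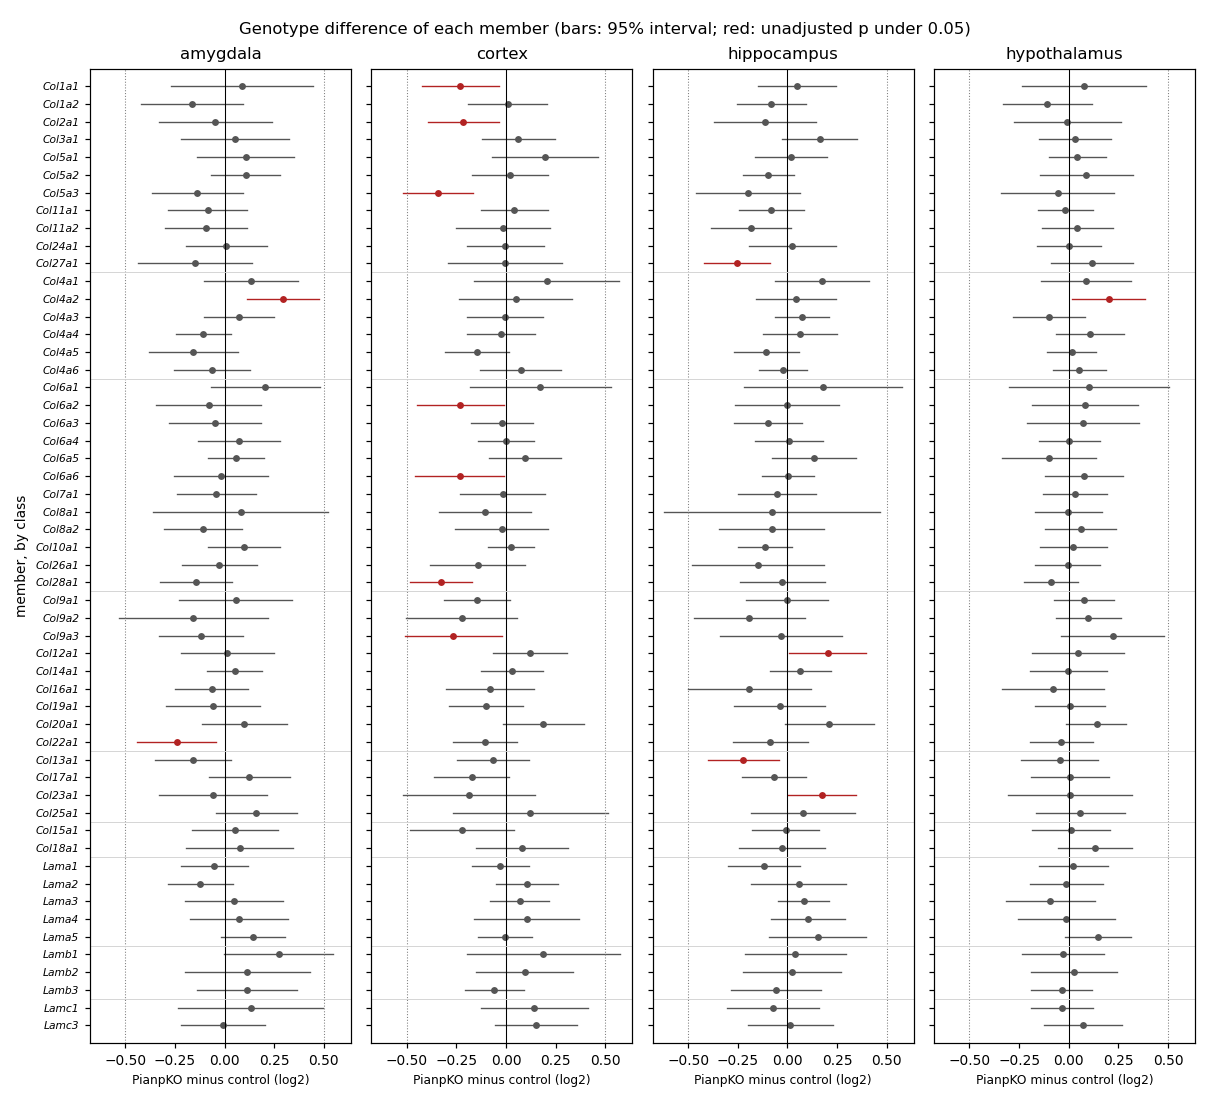
Difference of PianpKO minus control (log2) for each of the 54 members in 4 regions, with 95% intervals, and red where the unadjusted p is under 0.05. The dotted lines at 0.5 on either side of zero enclose the whole interval of 51, 46, 51 and 53 members, and the 7 red members of the cortex, none of which passed after adjustment, are below zero (13% of members against 6.34% of all probe sets).

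By direction, members and all probe sets at an unadjusted p under 0.05 were then counted in each region. In the cortex all 7 members were lower in PianpKO mice (13% against 6.34% of all probe sets) and 0 were higher (against 4.88%). The amygdala had 1 higher (1.85% against 3.86%) and 1 lower (against 4.21%). The hippocampus had 2 higher (3.7% against 2.45%) and 2 lower (against 2.64%), and the hypothalamus 1 higher (1.85% against 2.74%) and 0 lower (against 2.81%). None of these members passed after adjustment. The 7 of the cortex were the fibrillar *Col1a1*, *Col2a1* and *Col5a3*, the type VI chains *Col6a2* and *Col6a6*, and *Col28a1* and *Col9a3*. The control cortex signals of *Col28a1*, a collagen of peripheral nerve, were 3.72, 3.99, 3.89, 3.77 and 3.97. The PianpKO signals were 3.57, 3.49, 3.67, 3.53 and 3.42. The PianpKO samples all lay below the controls, which in the cortex held for 1 of 54 members (1.85%) and 1.37% of all probe sets (2.11% without overlap in either direction). In the hypothalamus it held for 0 members and 0.936% of all probe sets. The difference was -0.33 ± 0.07, with an adjusted p of 0.168 and an exact two-sided permutation p of 0.00794, the smallest that 5 against 5 allows. The permutation p is not adjusted for the number of members and comes from the values by which the gene was named. *Col4a2* in the amygdala and *Col27a1* in the hippocampus had the same permutation p. Over 17 alternative settings the adjusted p ran from 0.0958 to 0.323.

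*Col5a3*, a chain of the fibril-regulating collagen V, read 5.52, 5.51, 5.30, 5.23 and 5.48 in the control cortex and 5.06, 4.95, 5.25, 4.95 and 5.12 in the PianpKO cortex. PianpKO mouse 3 overlapped the controls and the other 4 were below them. The difference was -0.34 ± 0.08 (adjusted p = 0.187, and 0.141 to 0.36 over 18 alternatives). The control cortex was also the highest control region for this gene, at 5.41 against 4.98 to 5.14, and the regional test gave an adjusted p of 0.0115 in control mice and 0.766 in PianpKO mice. Its interaction of genotype and region had an unadjusted p of 0.36.

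In the amygdala, *Col4a2* read 4.88, 4.96, 5.06 and 4.83 in control mice and 5.46, 5.14, 5.21, 5.16 and 5.18 in PianpKO mice. All PianpKO samples were above all controls, which held for 1 of 54 members (1.85%) and 1.11% of all probe sets in the amygdala (2.46% without overlap in either direction). PianpKO mouse 1 lay apart from the other 4. The difference was 0.30 ± 0.08, with an adjusted p of 0.506 (0.355 to 0.984 over 17 alternatives). In the hypothalamus it was 0.20 ± 0.08 (adjusted p = 0.878), and in the cortex and hippocampus 0.05 ± 0.13 and 0.04 ± 0.09. The neighbour *Col4a1* gave 0.13 (amygdala), 0.21 (cortex), 0.18 (hippocampus) and 0.09 (hypothalamus), none at an unadjusted p under 0.05. In the same amygdala samples the mean of 8 striatal markers ran from 7.995 to 8.744 in the controls. The PianpKO samples lay below that, from 7.426 to 7.771. All 8 had an unadjusted p under 0.05, and 0 of 8 passed after adjustment. The mean of 11 hypothalamic markers overlapped between controls (5.22 to 6.60) and PianpKO samples (6.06 to 7.24), with 1 of 11 at an unadjusted p under 0.05. The part of these markers in the *Col4a2* difference was not tested.

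In the hippocampus, *Col27a1*, a fibrillar collagen of cartilage, read 4.82, 4.90, 4.89, 4.57 and 4.60 in control mice and 4.53, 4.45, 4.49, 4.55 and 4.50 in PianpKO mice. The PianpKO samples all lay below the controls (0.389% of all probe sets, and 0.775% without overlap in either direction), by 0.03 between the nearest samples. The difference was -0.25 ± 0.08 with an adjusted p of 0.926, and the other regions gave -0.15, -0.01 and 0.12 in the amygdala, cortex and hypothalamus.

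For the mean genotype difference over the 4 regions, 1 model held the 39 samples, and the mouse entered as a random effect. No member passed an adjusted p under 0.05, against 0.319% of all probe sets, and 8 had an unadjusted p under 0.05 (14.8% against 14.6%), 3 higher (5.56% against 6.56%) and 5 lower (9.26% against 8.02%). *Col28a1* had the smallest p, with a mean difference of -0.15 ± 0.05 and an adjusted p of 0.124. It passed at 0.0383 without PianpKO mouse 3 and at 0.0385 without the replicate block of the mouse. *Col20a1*, a FACIT collagen, was higher by 0.16 ± 0.05 (adjusted p = 0.157), with 0.10 (amygdala), 0.19 (cortex), 0.21 (hippocampus) and 0.14 (hypothalamus). Its control samples ran from 3.92 to 4.35 in the amygdala, 3.999 to 4.36 in the cortex, 3.65 to 4.15 in the hippocampus and 3.78 to 4.03 in the hypothalamus. The PianpKO samples ran from 4.02 to 4.33, 4.13 to 4.525, 4.09 to 4.39 and 3.95 to 4.12, so that the genotypes overlapped in all 4 regions. No member showed a genotype effect that differed between regions at an adjusted p under 0.05 in limma, as no probe set did (0%). At an unadjusted p under 0.05 there was 1 member, *Col28a1* (1.85% against 5.15% of all probe sets).

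Genes that act with collagens and laminins were taken from 4 lists. These held 17 partners in the basement membrane, 26 measured enzymes and chaperones of collagen (*Fkbp10* and *Adamts2* were not analysed here), 14 receptors, and 12 proteases and their inhibitors. In the genotype fits of the 4 regions and of their mean, 0 genes of these lists passed an adjusted p under 0.05. At an unadjusted p under 0.05, all probe sets gave 8.07% for amygdala, 11.2% for cortex, 5.08% for hippocampus and 5.55% for hypothalamus samples, and 14.6% for the mean. In that order the 17 partners gave 3, 3, 1 and 2 genes, and 5 for the mean. The 26 enzymes gave 4, 4, 2 and 1, and 6 for the mean. The 14 receptors gave 3, 1, 1 and 3, and 2 for the mean, and the 12 proteases and inhibitors 2, 1, 0 and 0, and 2 for the mean.

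Between the control regions 9 of 17 partners, 11 of 26 enzymes, 9 of 14 receptors and 6 of 12 proteases and inhibitors differed, and in PianpKO mice 9, 14, 6 and 6. Of all probe sets, 27.6% differed in the controls and 26.9% in the PianpKO mice. In control mice it was 48% of those with a mean of at least 5. *Sparc*, a collagen-binding protein of astrocytes and vessels, was lowest in the cortex (10.28) and highest in the hypothalamus (12.04) of control mice, with -1.30 for the cortex against the other regions (adjusted p = 8.66e-08). *Smoc2*, a calcium-binding matrix protein, was highest in the hippocampus (5.89) and lowest in the hypothalamus (4.49). *Pcolce2*, an enhancer of procollagen processing, was higher in the hippocampus by 1.09 (adjusted p = 1.92e-05), and *P4ha3*, a prolyl hydroxylase subunit, lower in the cortex by -0.84 (adjusted p = 0.000358).

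Of the receptors, the laminin-binding integrin chain *Itga7* (0.80, adjusted p = 1.58e-05) and the collagen-binding kinase *Ddr1* (0.70, adjusted p = 3.52e-05) were higher in the hippocampus than in the other control regions. In PianpKO mice *Itga7* did not pass the regional test (adjusted p = 0.188), with a hippocampus mean of 5.58 against 5.21 to 5.34 in the other regions, and *Ddr1* did (adjusted p = 0.000635). *Ddr1* is also made by oligodendrocytes, whose markers were highest in the hippocampus as given above, and their part was not tested. The membrane protease *Mmp14* (-0.80, adjusted p = 6.71e-05) and the inhibitor *Timp3* (-0.80, adjusted p = 1.73e-07) were lower in the cortex, as *Lamb1*, *Lamb2*, *Lama1* and *Col25a1* were.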

How the data were processed

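Microarrays (Affymetrix Mouse Gene 2.0 ST) of 39 samples were analysed. The authors annotated them with a custom chip definition of 1 probe set per Entrez gene and normalized them by quantile normalization, and the submitters' processing notes name RMA. The deposited values are log2 signals. All arrays shared a median (4.62305 to 4.62315), so small global shifts are removed. The number of arrays limits the precision. Differences were fitted with limma 3.58.1 in R 4.3.3 over all 25429 probe sets, with Benjamini-Hochberg adjustment and a threshold of 0.05. Genotypes were compared within each region; regions were compared within a genotype, the mouse being a random effect (duplicateCorrelation of limma, statmod 1.5.0), since the regions of a mouse share a number in the labels. Values of single samples, or the range of each group, are given for members with an unadjusted p under 0.01 in a genotype fit, for the 3 members most above and 2 most below the other regions in control mice, and for the 3 brightest. The members, lists and tests were chosen with earlier results of these data known. Fits were tested on simulated data. Control and PianpKO samples of equal replicate number come from different mice. They deviated together, at a correlation over 0.1, in 8 of 19 pairs (-0.093 to 0.238). Number 2 gave 0.236 (amygdala), 0.162 (cortex), 0.161 (hippocampus) and 0.234 (hypothalamus). In that order number 1 gave -0.056, -0.018, -0.093 and 0.035. Pairs of unequal number were not set beside them, so a block shared by number was not tested by this count.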

Additional observations from a re-analysis of the deposited data

Results flagged for a closer look

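Single samples far from the rest of their group were sought in 17 members and 8 groups. Of 136 groups tested, 8 (5.88%) had one, and chance gives about 1 in 20. For *Lamb1*, control hippocampus 1 was the highest at 6.99 (next 6.75), and control hypothalamus 3 was the highest at 6.08 (next 5.76). For *Lamc1*, control hippocampus 4 was the lowest at 6.87 (next 7.23). For *Col9a3*, PianpKO hippocampus 2 was the lowest at 4.71 (next 5.32) and control hypothalamus 4 the highest at 5.10 (next 4.75). *Col19a1* had its highest control hippocampus sample in mouse 3 at 4.49 (next 4.17). *Col4a2* was highest in PianpKO amygdala 1 at 5.46 (next 5.21), and *Col6a5* in PianpKO hippocampus 4 at 4.17 (next 3.78). The genotype effect was not shown to differ between regions for any member.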

How the results depend on the processing

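The count of members called for genotype stayed at 0 in every region and for the interaction under all alternatives. The mean genotype difference gave 1 called member without the replicate block of the mouse and 0 to 1 when a mouse was left out. With probe sets of a mean of at least 5 only, fewer members were tested: 10 differed between regions in control and 8 in PianpKO mice, and 1 was called for the hippocampus in each. Leaving out a mouse gave 10 to 17 members with a regional difference in control mice and 10 to 18 in PianpKO mice. For single regions it gave 1 to 2 (amygdala, PianpKO), 2 to 4 (cortex, both genotypes), 1 to 2 (hippocampus, control), 2 to 3 (hippocampus, PianpKO), 0 to 2 (hypothalamus, control) and 1 to 2 (hypothalamus, PianpKO). The mouse as a fixed replicate block gave 17 members with a regional difference in each genotype. The replicate number as a block gave 0 genotype calls in each region, where equal numbers mark different mice. No difference of a named member reversed. Of the alternative regional values of named members, 295 kept their side of the threshold and 33 lost their call, 31 of them with a mouse left out. Array medians were equal, so centring changed nothing. Over probe sets of a mean of at least 5, the median genotype difference of the members moved from 0.01 to 0.10 (amygdala), from -0.01 to 0.10 (cortex) and from -0.02 to 0.03 (hippocampus). Differences were planted in simulated data, 50 per size. For genotype in the hippocampus, 68% of those of 0.5 and 98% of those of 1 were recovered. For the mean genotype difference it was 96% of those of 0.5. All sizes up to 2 were planted together, which loosens the adjusted threshold, and the noise held no mouse effect. The measured hippocampus fit called 1 of 25429 probe sets (0.00393%), so these shares can overstate the recovery there. Of the members, 41 had a control mean under 5.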
